A study of Mus musculus with 9 samples.

Results

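Marker genes of tissues other than the substantia nigra, 39 in all, were followed in nigral RNA of mice through a fasting experiment. The set held 4 genes of excitatory cortical neurons, 10 of the choroid plexus epithelium, 9 of the ciliated ependyma, 12 of the meninges and other fibroblasts, 2 pituitary hormones and 2 hindbrain Hox genes. Members were taken by gene symbol from the count table, and 39 of 39 were among its 20591 rows. Of these, 34 of 39 passed the filter on low counts and were tested with 20535 genes in all, while Kcne2, Gh, Prl, Hoxb3 and Hoxb5 did not pass.

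RNA was sequenced from substantia nigra lysates of C57BL/6 mice that were 12 weeks old at allocation and carried the label Sham in all 3 groups. The 1 week group (3 libraries) went through intermittent fasting with 3 fasts in 1 week, the 1 day group (3 libraries) was fasted once, and the ad libitum group (3 libraries) had food throughout for 1 week. Each fast lasted 24 h and began 2 h before lights went off, and fed mice were moved between cages at the same times as fasted mice. The labels number the libraries within a group and do not say whether each came from its own animal or from a pool, what the sham procedure was or how the nigra was dissected. P-values below therefore measure the spread between these libraries. In bulk tissue, fewer cells of a type and less RNA per cell cannot be told apart.

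The cerebral cortex is built mainly from excitatory neurons that load glutamate into vesicles, and NeuroD and T-box transcription factors mark their differentiation. The choroid plexus is a secretory epithelium in the ventricles that makes cerebrospinal fluid and exports transthyretin, a carrier of thyroid hormone and retinol. Ependymal cells line the ventricles and move that fluid with motile cilia, and the meninges are fibroblast sheets that wrap the brain and lay down collagens and small proteoglycans. The anterior pituitary sits under the hypothalamus, and Hox genes are active in the hindbrain and spinal cord but not in the midbrain or forebrain.

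Library totals ran between 36109995 and 54248856 estimated counts, so that 3 counts, the limit used for a gene at 0, equalled between 0.0541 and 0.0868 CPM (counts per 1000000 counts). All levels are CPM on edgeR's TMM scale, intervals on counts cover counting error only, and fold changes are log2 values from edgeR. Dopaminergic markers were present in every library, at levels that differed between libraries. Th, the rate-limiting enzyme of dopamine synthesis, had 296, 118 and 211 CPM in the 1 week libraries, 162, 88.6 and 76.1 CPM in the 1 day libraries and 159.6, 177 and 207 CPM in the ad libitum libraries. The dopamine transporter Slc6a3 lay between 184 and 526 CPM, and the vesicular transporter Slc18a2 between 89.8 and 202 CPM. Over the 10 dopaminergic markers the summed level was lowest in 1 day replicate 3 (851 CPM) and highest in 1 week replicate 1 (2067 CPM). A further pair of libraries differed most from the rest across the table: 1 day replicate 2 held the highest value of 23.3% of the tested genes, and limma's quality weights were 0.213 for it and 0.507 for 1 week replicate 2, against 0.972 to 1.93 for the other 7.

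The members did not rise and fall as 1 block. Their highest values gathered in a few of the 9 libraries, which differed between tissues. Among the 34 tested members, 14 were highest in 1 week replicate 3, 9 in 1 day replicate 3, 9 in ad libitum replicate 3 and 2 in 1 week replicate 2. Of all genes tested, 15.5%, 12.1%, 9.73% and 9.63% were highest in those same 4 libraries. Cortical and meningeal genes peaked in 1 week replicate 3, choroid plexus genes in ad libitum replicate 3 and ependymal genes in 1 day replicate 3.

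**Figure D1:**
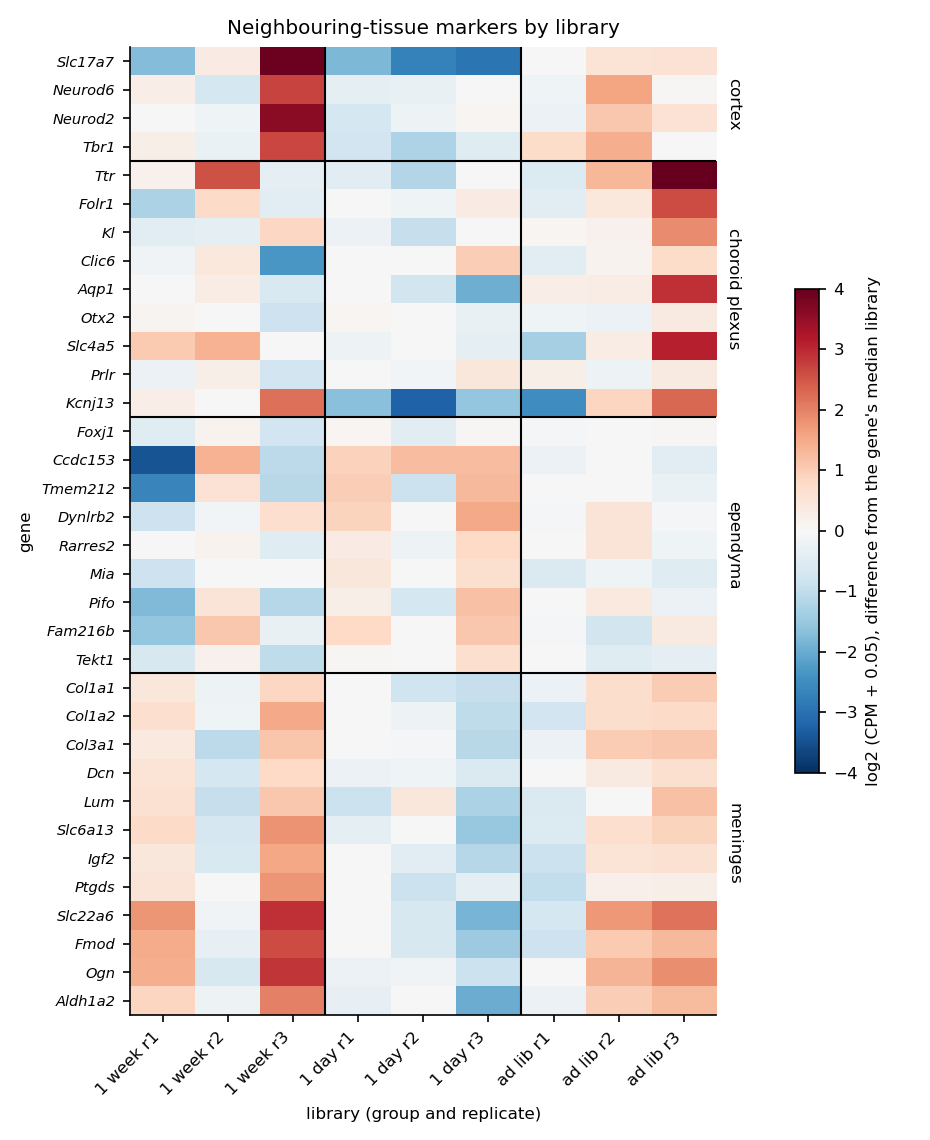
Level of the 34 tested members (rows, grouped by tissue) in each of the 9 libraries (columns, 1 week, 1 day and ad libitum, r1 to r3 being replicates), as the difference in log2 (CPM + 0.05) from the gene's median library. Red blocks stand at 1 week replicate 3 for cortex and meninges, at ad libitum replicate 3 for choroid plexus and, more weakly, at 1 day replicate 3 for ependyma.

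Cortical genes were dominated by 1 library. Slc17a7, the vesicular glutamate transporter VGLUT1, had 10.02, 41.9 and 501 CPM in the 1 week libraries, 9.496, 5.06 and 4.31 CPM in the 1 day libraries and 33.2, 48.3 and 49.2 CPM in the ad libitum libraries. The highest library, 1 week replicate 3, stood 15.1 times above the median library, and the 1 day libraries all lay below the ad libitum libraries. Neurod2, a basic helix-loop-helix factor of maturing excitatory neurons, had 2.83, 2.51 and 35.3 CPM in the 1 week libraries, 1.72, 2.45 and 2.997 CPM in the 1 day libraries and 2.42, 5.99 and 4.29 CPM in the ad libitum libraries. Neurod6, a related factor, had 3.08, 1.53 and 16.8 CPM in the 1 week libraries, 1.91, 2.07 and 2.54 CPM in the 1 day libraries and 2.23, 7.72 and 2.5999 CPM in the ad libitum libraries. Both were highest in 1 week replicate 3, with ad libitum replicate 2 next, and the other 1 week libraries were within or near the range of the 1 day group. Tbr1, a T-box factor of deep-layer projection neurons, had 0.793, 0.545 and 4.598 CPM in the 1 week libraries, 0.374, 0.258 and 0.461 CPM in the 1 day libraries and 1.16, 1.94 and 0.672 CPM in the ad libitum libraries, again with 1 week replicate 3 first and ad libitum replicate 2 second. Summed over the 4 genes, the level was 16.7, 46.5 and 558 CPM in the 1 week libraries, 13.5, 9.84 and 10.3 CPM in the 1 day libraries and 39.01, 63.9 and 56.7 CPM in the ad libitum libraries. The sum in 1 week replicate 3 was 14.3 times the median library, and the 3 lowest sums were those of the 1 day group. Slc17a7 made up 501 of the 558 CPM in 1 week replicate 3.

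Of 20 other cortical and hippocampal genes, 19 were tested, none was called in any comparison, and 12 of 19 were highest in 1 week replicate 3. Their sum was 760.4, 835 and 1127 CPM in the 1 week libraries, 796, 767 and 874 CPM in the 1 day libraries and 896, 850.5 and 838 CPM in the ad libitum libraries, so that 1 week replicate 3 again came first, while the lowest library was 1 week replicate 1 and not one of the 1 day group. Emx1, a homeobox gene of the dorsal forebrain that did not pass the filter, reached 1.25 CPM there against a median library of 0.0867 CPM. Fezf2, a factor of subcortical projection neurons, reached 4.71 CPM there, with 0.0545 CPM in 1 week replicate 2 as its lowest value. Neurod1 reached 6.93 CPM against a median of 1.88 CPM, and Sv2b, a synaptic vesicle protein, reached 266 CPM against a median of 83.7 CPM.

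Of the 9 choroid plexus genes tested, 7 were highest in ad libitum replicate 3, with a ratio to the median library between 1.29 for Otx2 and 56.03 for Ttr. Ttr, transthyretin, had 6.67, 35.5 and 4.58 CPM in the 1 week libraries, 4.36, 2.61 and 5.97 CPM in the 1 day libraries and 4.07, 15.1 and 335 CPM in the ad libitum libraries. Ad libitum replicate 3 stood 56.03 times above the median library, 1 week replicate 2 came second, and the 1 day libraries overlapped the lowest ad libitum library. Kcnj13, the potassium channel Kir7.1 of the apical membrane, had 1.0996, 0.8999 and 4.34 CPM in the 1 week libraries, 0.249, 0.0516 and 0.277 CPM in the 1 day libraries and 0.121, 1.68 and 4.61 CPM in the ad libitum libraries. It was about as high in 1 week replicate 3 as in ad libitum replicate 3, and ad libitum replicate 1 lay with the 1 day libraries. Slc4a5, a sodium bicarbonate cotransporter, had 1.35, 1.72 and 0.624 CPM in the 1 week libraries, 0.5403, 0.6197 and 0.461 CPM in the 1 day libraries and 0.218, 0.781 and 5.74 CPM in the ad libitum libraries, so that ad libitum held both its highest and its lowest library.

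Aqp1, the water channel of this epithelium, had 0.415, 0.518 and 0.254 CPM in the 1 week libraries, 0.416, 0.232 and 0.0692 CPM in the 1 day libraries and 0.509, 0.521 and 3.47 CPM in the ad libitum libraries. All 1 day libraries were below all ad libitum libraries, and 1 day replicate 3 was at the limit set by 3 counts. Kl, klotho, had 4.597, 4.83 and 11.1 CPM in the 1 week libraries, 5.24, 3.23 and 6.202 CPM in the 1 day libraries and 6.51, 7.001 and 23.3 CPM in the ad libitum libraries, the second library being 1 week replicate 3. Folr1, the folate receptor alpha, peaked in ad libitum replicate 3 at 2.79 CPM, the other 8 libraries having no more than 0.736 CPM. Kcne2, a potassium channel subunit that did not pass the filter, had 8, 16 and 7 counts in the 1 week libraries, 7, 4 and 7 in the 1 day libraries and 4, 7 and 75 in the ad libitum libraries. Its highest library was the same one as for Ttr.

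Otx2, a homeobox factor that the choroid plexus needs, had 6.598, 6.24 and 3.44 CPM in the 1 week libraries, 6.48, 6.12 and 5.03 CPM in the 1 day libraries and 5.38, 5.24 and 7.91 CPM in the ad libitum libraries. Its highest library was only 1.29 times its median, close to the median of 1.29 over all tested genes. Prlr, the prolactin receptor, ran between 9.24 and 21.7 CPM. Clic6, an intracellular chloride channel, ran between 1.48 and 14.99 CPM. Prlr and Clic6 were highest in 1 day replicate 3 and, like Otx2, lowest in 1 week replicate 3, so they did not follow Ttr.

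Summed over its 10 members the choroid plexus level was 41.3, 79.5 and 35.5 CPM in the 1 week libraries, 41.2, 35.2 and 55.4 CPM in the 1 day libraries and 41.4, 53.1 and 417 CPM in the ad libitum libraries, and ad libitum replicate 3 was 10.1 times the median library. Ttr made up 335 of the 417 CPM in that library. Per kilobase of exon, Ttr averaged 38.7 CPM per kb over the 9 libraries but had a median of 5.03 CPM per kb. Of 20 other choroid plexus genes, 15 were in the table and tested, none was called, and 11 of 15 were highest in ad libitum replicate 3. Coagulation factor gene F5 reached 5.74 CPM there against a median of 1.07 CPM, Sostdc1 2.5999 against 0.686 CPM and the flippase gene Abca4 7.45 against 1.99 CPM. The other 4 of 15 were highest in 1 week replicate 3. Among them Slc13a4, a sulphate transporter, had 46.6 CPM there and 28.2 CPM in ad libitum replicate 3.

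**Figure D2:**
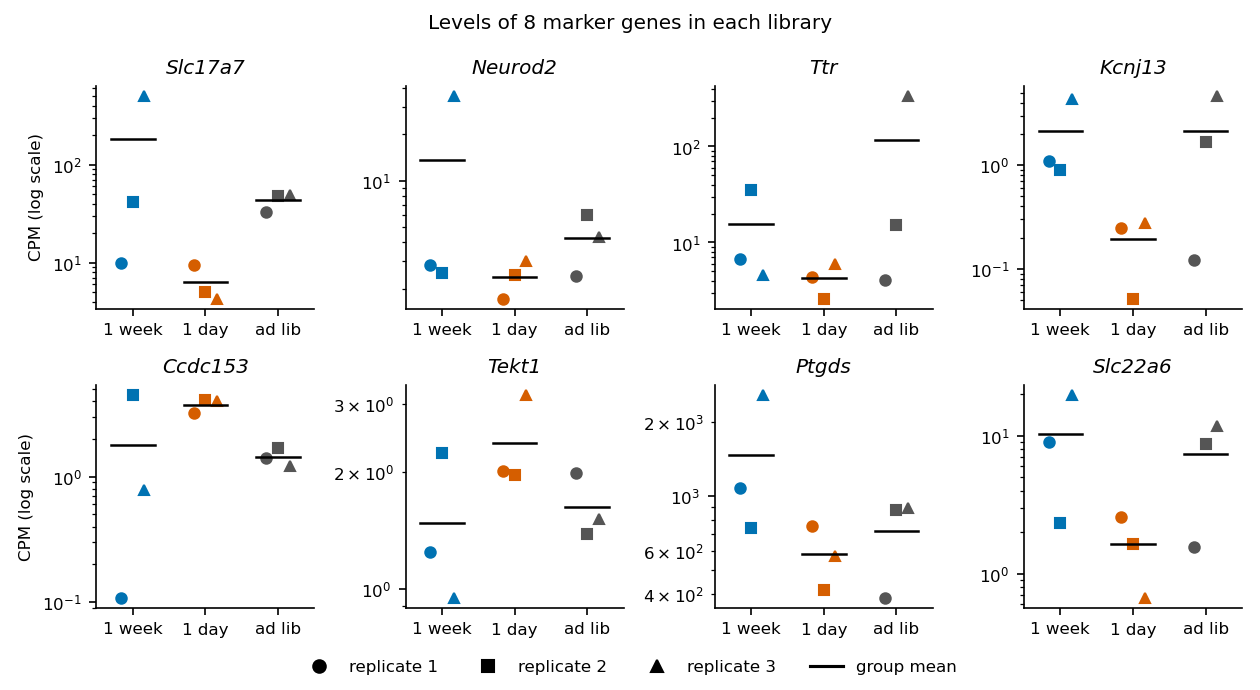
CPM (log scale, a separate axis for each gene) of 8 members in the 1 week, 1 day and ad libitum groups, with 1 point for each library, the shape giving the replicate and the line the group mean. Single libraries, 1 week replicate 3 for Slc17a7 and Neurod2 and ad libitum replicate 3 for Ttr, lie far from the other 2 of their group.

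In the 9 ependymal genes the ratio of the highest to the median library had a median of 2.23, against 9.65 in cortical, 5.13 in choroid plexus and 3.15 in meningeal genes. Foxj1, the transcription factor that switches on the motile cilia programme, had 13.95, 21.6 and 11.5 CPM in the 1 week libraries, 20.6, 14.3 and 20.2 CPM in the 1 day libraries and 18.4, 19.4 and 20.1 CPM in the ad libitum libraries. Its highest library was 1.11 times its median, and the 2 lowest libraries were 1 week replicates 3 and 1. Ccdc153, a coiled-coil gene of motile cilia, had 0.108, 4.44 and 0.786 CPM in the 1 week libraries, 3.2000, 4.05 and 4.01 CPM in the 1 day libraries and 1.405, 1.68 and 1.21 CPM in the ad libitum libraries. All 1 day libraries lay above all ad libitum libraries, while the 1 week libraries held both the highest and the lowest value. Tekt1, a tektin of the ciliary microtubules, had 1.24, 2.24 and 0.947 CPM in the 1 week libraries, 2.02, 1.96 and 3.16 CPM in the 1 day libraries and 1.99, 1.39 and 1.52 CPM in the ad libitum libraries. Tmem212, a transmembrane protein gene, had 0.0541, 0.927 and 0.254 CPM in the 1 week libraries, 1.25, 0.3098 and 1.54 CPM in the 1 day libraries and 0.605, 0.608 and 0.498 CPM in the ad libitum libraries, the lowest value being that of 1 week replicate 1, at the 3-count limit.

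Dynlrb2, a dynein light chain, had 0.198, 0.354 and 0.647 CPM in the 1 week libraries, 0.769, 0.387 and 1.199 CPM in the 1 day libraries and 0.363, 0.579 and 0.368 CPM in the ad libitum libraries. Pifo, a ciliary gene, had 0.0721, 0.545 and 0.139 CPM in the 1 week libraries, 0.436, 0.207 and 0.876 CPM in the 1 day libraries and 0.363, 0.492 and 0.303 CPM in the ad libitum libraries. Mia, which encodes a secreted protein, had 0.397, 0.764 and 0.763 CPM in the 1 week libraries, 1.04, 0.749 and 1.199 CPM in the 1 day libraries and 0.484, 0.665 and 0.51997 CPM in the ad libitum libraries, with all 1 day libraries above all ad libitum libraries. Rarres2, the gene of the secreted protein chemerin, lay between 3.19 and 7.84 CPM, and Fam216b between 0.126 and 1.04 CPM. Of the 9 genes, 7 were highest in 1 day replicate 3 and 2, Foxj1 and Ccdc153, in 1 week replicate 2. The lowest library was 1 week replicate 1 for 6 of them and 1 week replicate 3 for the other 3. Summed, the level was 20.7, 36.8 and 18.6 CPM in the 1 week libraries, 35.8, 26.3 and 41.02 CPM in the 1 day libraries and 28.5, 31.5 and 29.2 CPM in the ad libitum libraries, a range of 2.21 times from the lowest to the highest library. Foxj1, which varied least between libraries, is the largest part of this sum, and genes such as Ccdc153 and Tmem212 ranged more widely.

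The promoters of the ependymal members were read for the X-box arm GTTGCC (reverse complement GGCAAC). RFX factors, partners of Foxj1 in ciliated cells, are known to bind it. RefSeq promoter sequences (GRCm38.p6) were found for 28 of 39 members by symbol, and the 250 bases before each transcription start were searched on both strands. The letters occurred in 10.4% of 32841 such windows in the genome. Among ependymal members, 7 of 9 had a promoter, with 9 windows in all, of which 4 held the arm, 1 each for Ccdc153, Dynlrb2, Pifo and Tekt1. Windows with the arm numbered 1 of 4 for cortical, 4 of 13 for choroid plexus and 1 of 14 for meningeal members. A match is a description of the letters and not a bound site. The 4 ependymal windows are printed 5′ to 3′ on the gene's strand, with the matches in capitals, to show where the arm lies: chr9:44240427-44240676 (plus strand) for Ccdc153, chr8:116504765-116505014 (plus) for Dynlrb2, chr3:106001498-106001747 (minus) for Pifo and chr11:72361883-72362132 (minus) for Tekt1.
Ccdc153: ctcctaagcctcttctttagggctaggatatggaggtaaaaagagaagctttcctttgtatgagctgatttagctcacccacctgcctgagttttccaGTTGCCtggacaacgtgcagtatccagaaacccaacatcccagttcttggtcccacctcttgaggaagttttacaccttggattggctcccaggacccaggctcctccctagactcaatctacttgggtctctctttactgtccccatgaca
Dynlrb2: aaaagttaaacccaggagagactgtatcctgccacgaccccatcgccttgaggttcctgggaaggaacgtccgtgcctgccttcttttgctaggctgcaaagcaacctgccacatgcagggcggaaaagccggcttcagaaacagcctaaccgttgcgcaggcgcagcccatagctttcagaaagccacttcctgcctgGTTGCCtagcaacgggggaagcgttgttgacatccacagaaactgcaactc
Pifo: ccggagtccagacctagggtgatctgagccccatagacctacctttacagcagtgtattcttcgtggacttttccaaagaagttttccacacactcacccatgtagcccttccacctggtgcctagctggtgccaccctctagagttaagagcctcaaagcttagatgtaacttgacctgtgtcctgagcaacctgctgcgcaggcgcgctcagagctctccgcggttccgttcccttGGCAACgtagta
Tekt1: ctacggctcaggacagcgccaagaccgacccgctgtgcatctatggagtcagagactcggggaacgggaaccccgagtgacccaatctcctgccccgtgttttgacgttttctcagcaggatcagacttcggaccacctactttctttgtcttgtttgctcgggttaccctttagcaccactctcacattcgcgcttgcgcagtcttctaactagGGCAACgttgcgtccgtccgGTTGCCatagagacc
Relative to the transcription start the match began at −152 in Ccdc153, −51 in Dynlrb2 and −12 in Pifo, and the pair in Tekt1 began at −35 and −15. The SD between replicates on the log2 scale was 1.41 for Ccdc153, 0.651 for Dynlrb2, 0.895 for Pifo and 0.443 for Tekt1. Its median over the 9 ependymal members was 0.651, and a link between promoter letters and library levels was not tested. Other short motifs were also counted: the E-box CAGATG (reverse complement CATCTG) was in 1 of 4 cortical windows, that of Neurod2, 3 of 13 choroid plexus, 1 of 9 ependymal and 4 of 14 meningeal windows, and in 14.4% of all windows. The OTX motif TAATCC (reverse complement GGATTA) was in 1 of 13 choroid plexus windows, that of Otx2, 0 of 4 cortical, 1 of 9 ependymal and 2 of 14 meningeal windows, and in 6.25% of all.

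Of 20 other cilia genes listed, 19 were in the table and tested, none was called, and 18 of 19 were highest in 1 day replicate 3. Spag16, a part of the central pair apparatus of the cilium, reached 2.95 CPM in 1 day replicate 3 against a median library of 0.9202 CPM, the axonemal dynein heavy chain Dnah11 6.27 against 2.298 CPM, the kinase Nek5 1.199 against 0.436 CPM and Meig1 0.784 against 0.231 CPM. The summed level of the 19 genes was 19.4, 45.5 and 22.3 CPM in the 1 week libraries, 47.3, 36.5 and 75.3 CPM in the 1 day libraries and 35.9, 30.4 and 28.7 CPM in the ad libitum libraries. The same library, 1 day replicate 3, had the lowest dopaminergic sum, and the part of that difference in the ependymal values was not tested.

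Most meningeal genes were highest in 1 week replicate 3 and lowest in 1 day replicate 3, with ad libitum replicates 2 and 3 and 1 week replicate 1 in between. Ptgds, the lipocalin-type prostaglandin D2 synthase, which oligodendrocytes also make, had 1083, 744 and 2559 CPM in the 1 week libraries, 759, 418 and 573 CPM in the 1 day libraries and 387, 879.7 and 893 CPM in the ad libitum libraries. It was the most abundant member per exon length, with a mean of 559 CPM per kb, ahead of Ttr at 38.7, Igf2 at 18.6 and Slc17a7 at 14.5 CPM per kb. Igf2, insulin-like growth factor 2, had 122, 59.2 and 262 CPM in the 1 week libraries, 89.3, 66.8 and 40.5 CPM in the 1 day libraries and 49.6, 131 and 137 CPM in the ad libitum libraries. Aldh1a2, which makes retinoic acid, had 12.3, 5.92 and 27.8 CPM in the 1 week libraries, 5.44, 6.84 and 1.71 CPM in the 1 day libraries and 5.79, 13.5 and 16.5 CPM in the ad libitum libraries. In each of these genes ad libitum replicate 1 lay among the lowest libraries, so the ad libitum and 1 day groups overlapped.

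By the ratio of the highest to the median library, Slc22a6 (7.64), Ogn (7.42) and Fmod (6.12) had the steepest gradients of the 12 meningeal members, and Dcn (1.73) the flattest. Slc22a6, the organic anion transporter OAT1, had 8.96, 2.32 and 19.7 CPM in the 1 week libraries, 2.58, 1.65 and 0.669 CPM in the 1 day libraries and 1.55, 8.68 and 11.8 CPM in the ad libitum libraries. Slc6a13, the GABA transporter GAT2, had 18.7, 7.01 and 38.3 CPM in the 1 week libraries, 8.69, 11.1 and 3.85 CPM in the 1 day libraries and 7.603, 17.9 and 20.6 CPM in the ad libitum libraries. Fmod, fibromodulin, had 35.2, 10.01 and 76.5 CPM in the 1 week libraries, 12.5, 8.06 and 4.496 CPM in the 1 day libraries and 6.97, 25.9 and 30.5 CPM in the ad libitum libraries. In all of them 1 week replicate 3 was first and 1 day replicate 3 last. Ogn, osteoglycin, had 6.33, 1.45 and 16.9 CPM in the 1 week libraries, 1.91, 2.04 and 1.25 CPM in the 1 day libraries and 2.28, 5.96 and 8.45 CPM in the ad libitum libraries, and its 1 day libraries were all below its ad libitum libraries. Dcn, decorin, had 19.2, 7.94 and 22.5 CPM in the 1 week libraries, 10.9, 11.6 and 8.71 CPM in the 1 day libraries and 13.003, 16.8 and 20.1 CPM in the ad libitum libraries, with the 1 day libraries again below all ad libitum ones. Lum, lumican, ran between 0.5303 and 3.03 CPM and was highest in ad libitum replicate 3.

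Among the fibrillar collagens, Col1a1 had 23.1, 14.5 and 29.8 CPM in the 1 week libraries, 16.9, 9.68 and 8.85 CPM in the 1 day libraries and 14.4, 27.3 and 34.2 CPM in the ad libitum libraries. Col1a2 had 43.4, 24.2 and 76.97 CPM in the 1 week libraries, 27.2, 23.8 and 13.4 CPM in the 1 day libraries and 15.9, 43.8 and 46.1 CPM in the ad libitum libraries. Col3a1 had 7.21, 2.62 and 11.99 CPM in the 1 week libraries, 5.49, 5.34 and 2.54 CPM in the 1 day libraries and 4.65, 11.1 and 11.6 CPM in the ad libitum libraries. Col1a1 was highest in ad libitum replicate 3 and the other 2 in 1 week replicate 3. Of the 12 meningeal members, 10 were highest in 1 week replicate 3 and 10 lowest in 1 day replicate 3. Summed, they reached 1381, 879.8 and 3144 CPM in the 1 week libraries, 940.2, 567 and 659.9 CPM in the 1 day libraries and 510.0, 1183 and 1232 CPM in the ad libitum libraries, of which Ptgds is the largest part.

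A further 20 meningeal and fibroblast genes followed: 20 were tested, none was called, and 16 were highest in 1 week replicate 3 and 4 in ad libitum replicate 3. The polyspecific exporter Slc47a1 reached 8.78 CPM in 1 week replicate 3 against a median library of 1.09 CPM, the forkhead factor Foxc2 10.8 against 1.39 CPM and Igfbp6, which binds insulin-like growth factors, 10.6 against 1.39 CPM. Slc22a2, an organic cation transporter, was highest in ad libitum replicate 3 at 1.56 CPM. Fibroblasts also lie along vessels, so vascular markers were set beside them. The 7 mural genes summed to 335, 239.8 and 381 CPM in the 1 week libraries, 270.2, 274 and 198 CPM in the 1 day libraries and 215, 314 and 302 CPM in the ad libitum libraries, with 4 of 7 highest in 1 week replicate 3. Acta2, smooth muscle actin, had 28.8, 11.9 and 38.9 CPM in the 1 week libraries, 15.9, 11.2 and 9.71 CPM in the 1 day libraries and 10.1, 21.2 and 17.4 CPM in the ad libitum libraries. The 7 endothelial genes summed to between 364 and 499 CPM, and Cldn5, a tight junction protein, ran between 18.6 and 40.1 CPM with its highest value in ad libitum replicate 2. Slc2a1, the glucose transporter GLUT1 and the only one of these check genes past the test, had 212, 277 and 247 CPM in the 1 week libraries, 211, 187 and 149 CPM in the 1 day libraries and 117, 135 and 138 CPM in the ad libitum libraries. Its log2 fold change for 1 week against ad libitum was 0.92 (SE 0.15), with an edgeR adjusted p of 0.0380. The call was lost without any 1 of 6 libraries (1 week replicate 2 or 3, 1 day replicate 1, or any ad libitum replicate), with edgeR adjusted p between 0.0527 and 0.227. A block on replicate number lost it too, as did leaving out 1 week replicate 3 with ad libitum replicate 3, or 1 week replicate 2 with 1 day replicate 2. DESeq2 and limma voom kept the call, with adjusted p of 6.9e-06 and 0.0200. The fold change lay between 0.83 and 1.01 in every setting. The part of vascular cells in the meningeal result was not tested.

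**Figure D3:**
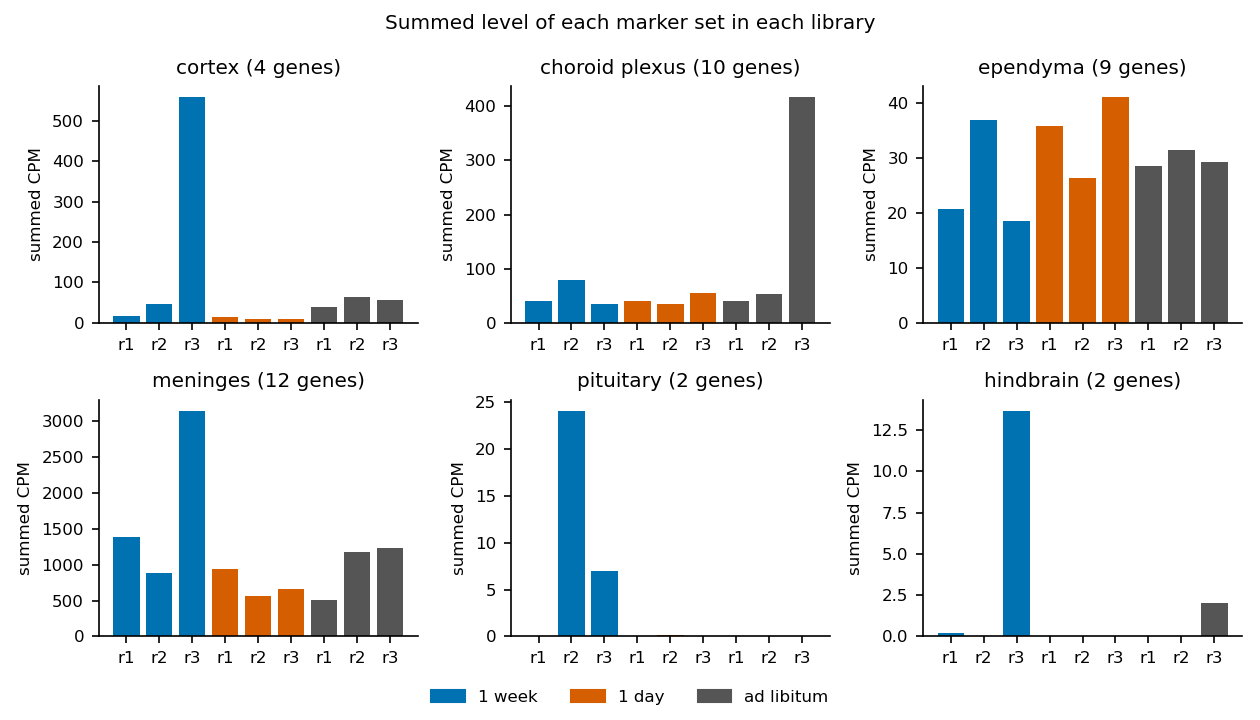
Summed CPM (vertical axis, from 0) of each marker set in the 9 libraries, r1 to r3 within the 1 week, 1 day and ad libitum groups. Cortex and meninges peak in 1 week r3, choroid plexus in ad libitum r3, pituitary in 1 week r2 and hindbrain in 1 week r3, while ependyma stays between 18.6 and 41.0 CPM.

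The pituitary and hindbrain members were near 0 in most libraries. Gh, growth hormone, had 3, 807 and 277 counts in the 1 week libraries, 1, 1 and 4 in the 1 day libraries and 1, 0 and 0 in the ad libitum libraries. Prl, prolactin, had 1, 75 and 24 counts in the 1 week libraries, 0, 3 and 0 in the 1 day libraries and 0, 0 and 0 in the ad libitum libraries. For both hormones 1 week replicate 2 was first and 1 week replicate 3 second, and the remaining 7 libraries had 4 counts or fewer. Of 6 other pituitary genes, 3 were in the table, and 2 of these 3, Pomc and Pou1f1, were highest in 1 week replicate 2. Pomc, the precursor of ACTH, which hypothalamic neurons also make, had 3.19 CPM there against a median library of 1.41 CPM. Pou1f1 had 0.954 against 0.665 CPM, and Lhb was highest in 1 day replicate 3 at 0.484 CPM.

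Hoxb3, a homeobox gene of the hindbrain, had 8, 0 and 335 counts in the 1 week libraries, 0, 1 and 0 in the 1 day libraries and 0, 0 and 80 in the ad libitum libraries. Hoxb5, from the same cluster, had 2, 0 and 256 counts in the 1 week libraries, 2, 0 and 1 in the 1 day libraries and 0, 0 and 14 in the ad libitum libraries. Both were highest in 1 week replicate 3 with ad libitum replicate 3 second. Hox clusters also hold antisense transcripts, and nothing in the labels says whether the authors' counting used strand, so these counts may include them. The other Hox genes in the table, Hoxa4, Hoxa5, Hoxb2, Hoxb4, Hoxc4 and Hoxd3, had the same first and second libraries, with 2.17 CPM in 1 week replicate 3 and 0.477 CPM in ad libitum replicate 3 for Hoxa4 and 3.72 and 0.498 CPM for Hoxc4. Tph2, the serotonin-synthesis enzyme of raphe neurons, had 9.12, 0.627 and 19.1 CPM in the 1 week libraries, 0.956, 1.21 and 0.369 CPM in the 1 day libraries and 0.509, 0.521 and 14.4 CPM in the ad libitum libraries. It was high in 1 week replicates 1 and 3 and ad libitum replicate 3. Slc6a5, the glycine transporter of inhibitory neurons of the hindbrain and spinal cord, reached 32.7 CPM in 1 week replicate 3 against a median of 1.28 CPM.

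The comparison of 1 week of intermittent fasting with ad libitum feeding called none of the 34 tested members by edgeR's quasi-likelihood test with Benjamini-Hochberg adjustment over 20535 genes at 0.05. By this test 0.307% of all genes were called, in either direction. DESeq2 and limma voom also called 0 members, beside 2.23% and 1.06% of all genes. At an unadjusted p under 0.05 the count was 1 member, Aqp1, which was lower, against 6.33% of all genes higher and 4.9% lower. No member had groups that did not overlap, against 10.9% of all genes higher and 11.5% lower. The cortical fold changes were positive in 4 of 4 genes with a median of 1.23, choroid plexus ones negative in 9 of 9 with a median of −0.85, ependymal ones positive in 3 of 9 with a median of −0.15 and meningeal ones positive in 9 of 12 with a median of 0.46. Single libraries turned these medians: without 1 week replicate 3 the cortical median became −0.79 and the meningeal one −0.31, without ad libitum replicate 3 the choroid plexus median became 0.03, and without 1 week replicate 1 the ependymal median became 0.03. Over all genes 49.8% of fold changes were positive and 50.2% negative, with a median of 0.00. For Slc17a7 the log2 fold change was 2.08 (SE 1.22), with a 95% interval of -0.77 to 4.93 and an edgeR adjusted p of 0.597. For Aqp1 it was -1.94 (SE 0.80), with an edgeR adjusted p of 0.411, the smallest among the members.

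A single day of fasting against ad libitum feeding likewise called 0 of 34 members by edgeR, DESeq2 or limma voom. Over all genes the share called was 0.0584% by edgeR, 0.896% by DESeq2 and 0.278% by limma voom. At an unadjusted p under 0.05 there were 6 members, 1 higher (Mia) and 5 lower (Ttr, Kl, Aqp1, Kcnj13 and Col1a1), against 4.37% of all genes higher and 4.9% lower. Groups did not overlap for 2 members that were higher, Ccdc153 and Mia, and 6 that were lower, Slc17a7, Tbr1, Kl, Aqp1, Dcn and Ogn, against 8.17% and 10.3% of all genes. Fold changes were negative in 4 of 4 cortical, 8 of 9 choroid plexus and 12 of 12 meningeal genes, with medians of −1.35, −1.50 and −0.998, and positive in 8 of 9 ependymal genes with a median of 0.84, while over all genes 50.1% were positive and 49.9% negative. Without ad libitum replicate 3 the choroid plexus median became 0.02, and without 1 day replicate 3 the ependymal one became 0.43. The largest was that of Ttr, -4.77 (SE 1.74) with a 95% interval of -8.84 to -0.70 and an edgeR adjusted p of 0.516. Aqp1 had -2.63 (SE 0.85) with an edgeR adjusted p of 0.462, and Slc17a7 -2.79 (SE 1.28) with an edgeR adjusted p of 0.544. When only the 6 libraries compared were fitted, Slc17a7 was called, with an edgeR adjusted p of 0.0408, beside 0.128% of all genes. This was 1 of 18 alternative settings, and none of the others called Slc17a7.

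Between 1 week and 1 day of fasting 0 of 34 members and 0% of all genes were called by edgeR, while DESeq2 called 7 genes, none of them a member. By edgeR, 10 members had an unadjusted p under 0.05, all higher in the 1 week group: 3 cortical genes, Kcnj13 and 6 meningeal genes, against 3.53% of all genes higher and 1.69% lower. Libraries of these 2 groups with the same number correlated positively, but so did some of unlike number. With the replicate number as a block the count was 2 members, Tbr1 and Kcnj13, against 4.55% of all genes. With the block on the 6 libraries compared, a fit added after seeing the data, it was 5 members, Tbr1, Slc4a5, Kcnj13, Col1a1 and Ptgds, against 4.55% again, and neither fit called a member. Groups did not overlap for 4 members, Slc17a7, Tbr1, Slc4a5 and Kcnj13, all higher, against 4.5% of all genes higher and 3.28% lower. Fold changes were positive in 4 of 4 cortical and 12 of 12 meningeal genes, with medians of 2.46 and 1.25, and in 5 of 9 choroid plexus genes with a median of 0.48. They were negative in 9 of 9 ependymal genes with a median of −0.70. Without 1 week replicate 3 the medians became 0.52 for cortical, 0.67 for meningeal and 0.13 for choroid plexus genes, and the ependymal median became −0.44 without 1 day replicate 3 and −1.11 without 1 week replicate 2. Over all genes 49.9% were positive and 50.1% negative. Slc17a7 had 4.87 (SE 1.39) with a 95% interval of 1.61 to 8.13, and Slc22a6 2.66 (SE 0.97) with 0.40 to 4.91; the edgeR adjusted p was 0.853 for both. The 3 comparisons share libraries in pairs, so their values are not separate evidence of one another.

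**Figure D4:**
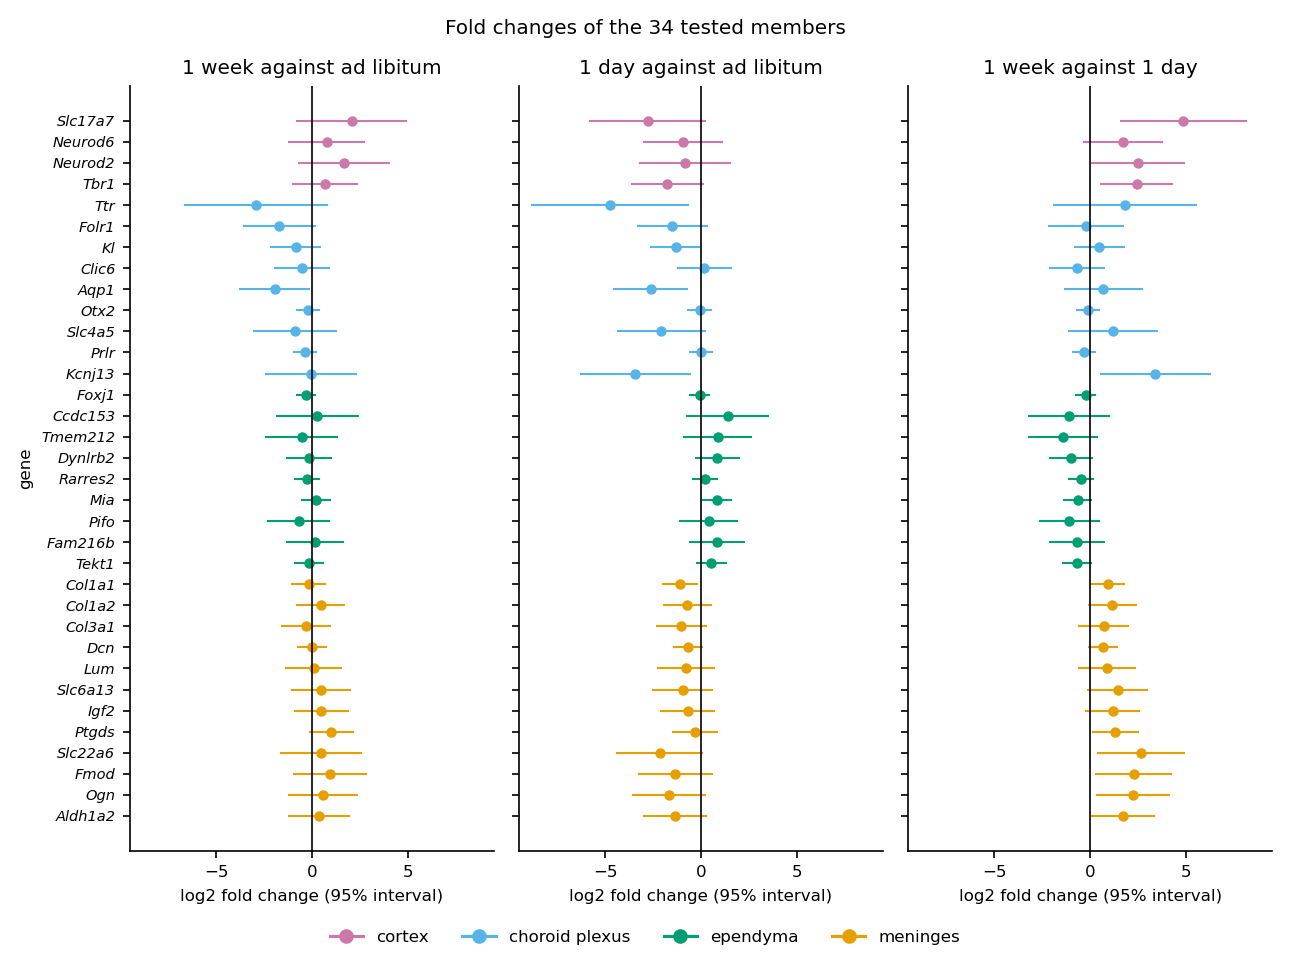
Log2 fold change (points) with its 95% interval (lines) for the 34 tested members in the comparisons 1 week against ad libitum, 1 day against ad libitum and 1 week against 1 day, coloured by tissue. Intervals are wide, the median width being 2.96 on the log2 scale in both comparisons with ad libitum, against 0.867 over all genes.

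Replicates of 1 group differed widely in these genes. The SD between replicates of a group, pooled over the 3 groups on the log2 scale, had a median of 0.953 over the 34 members and of 0.239 over all genes. It was above 1 for 14 of 34 members (41.2%) and for 2.25% of all genes. The highest library exceeded the median library more than 5 times for 12 of 34 members (35.3%) and 0.896% of all genes: 4 cortical, 5 choroid plexus and 3 meningeal genes (Slc22a6, Fmod and Ogn). Ttr had the largest SD of the members, 2.12, followed by Slc17a7 at 1.69 and Kcnj13 at 1.68. Foxj1, Otx2, Mia and Prlr had the smallest, between 0.319 and 0.379, and Foxj1 lay at the 65.9th percentile of all genes. For comparison the median SD was 0.399 over the 10 dopaminergic, 0.203 over the 7 endothelial and 0.475 over the 7 mural genes. By tissue it was 1.24 in cortical, 1.09 in choroid plexus, 0.651 in ependymal and 0.900 in meningeal members. Over the other markers of these tissues it was lower, at 0.348, 0.669, 0.592 and 0.695. Their ratio exceeded 5 for 0 of 19, 2 of 15, 0 of 19 and 4 of 20 genes. Members were chosen with earlier results of these data known, so their excess over all genes may partly reflect that choice.

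**Figure D5:**
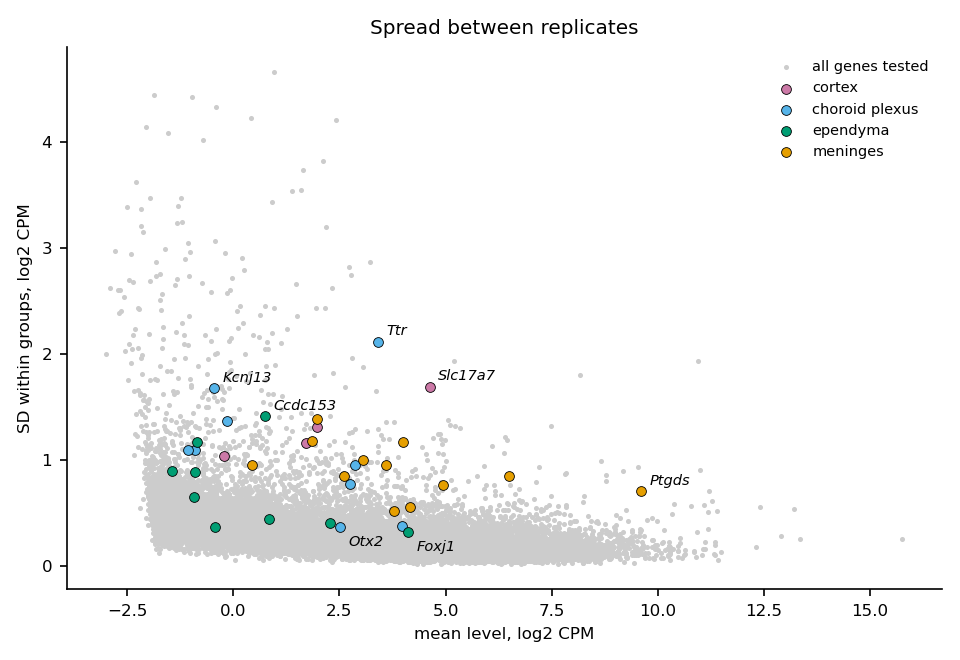
SD between replicates within groups (vertical axis, log2 CPM) against mean level (horizontal axis, log2 CPM) for all 20535 genes tested (grey) and the 34 members (coloured by tissue). Ttr, Slc17a7 and Kcnj13 stand high above most genes of their level, and Foxj1 and Otx2 lie among them.

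Each member was also refitted without its own highest library. In the comparison of 1 week with ad libitum, the highest library belonged to one of the 2 groups for 25 members, and 17 of these 25 changed sign without it, among them 4 of 4 cortical genes. The fold change of Slc17a7 became -0.75, that of Neurod2 -0.66 and that of Ttr 0.70. In the comparison of 1 day with ad libitum this held for 6 of 18 members, and the fold change of Ttr became -1.15 and that of Aqp1 -1.08. For 1 week against 1 day, none of 25 changed sign and 23 moved nearer to 0, Slc17a7 to 2.03. Leaving out a gene's highest library lowers the level of that library's group by construction, so part of each shift was set in advance. The same counts were not made over all genes, so they do not set the members apart. No member was called by edgeR in any of these refits.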

How the data were processed

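The authors deposited 1 table of estimated counts per gene for the 9 libraries. Per the submitters' processing notes it was made with Salmon, with GRCm39 (mm39) named as build and DESeq2 1.40.2 also listed, and per the labels' protocols libraries were made from total RNA with a directional kit. Estimated counts were rounded to whole numbers. Genes were kept by edgeR's filterByExpr (minimum count 10, minimum total 15), which removed 56 of 20591 rows. The test was edgeR 4.0.16 (quasi-likelihood, robust, TMM, R 4.3.3) on all 9 libraries, with Benjamini-Hochberg adjustment over 20535 genes and a threshold of 0.05. SEs and 95% intervals come from its F statistics. Exon lengths for levels per kb are from GENCODE M21 (GRCm38), matched by gene ID. Alternatives used DESeq2 1.42.0, limma 3.58.1, other filters and scalings, a replicate block, and libraries left out. Same-numbered libraries of the 1 week and 1 day groups had positive correlations of 0.167, 0.499 and 0.110 over 10430 genes. Pairs of unlike number ran from -0.431 (1 day replicate 1 with 1 week replicate 2) to 0.353 (1 day replicate 3 with 1 week replicate 1). Neither the data nor the labels therefore clearly pair them by number, and the replicate block is only an alternative. The fit was tested on simulated counts in which planted changes covered a whole group. No single library was set apart in them, as it was here for Ttr and Slc17a7, so that test does not cover such genes. No pair of libraries held the same values.

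Members and lists were chosen with earlier results of these data known. All members are named. Of the lists of other markers, genes past the test are named, or else up to 4 with the highest ratio of highest to median library, and all 8 hindbrain genes found, since most have a median of 0. Per library the 5 genes with the largest ratio to the median of the other 8 are named, among tested genes with a mean of at least 1 CPM and such a median above 0; 1 such gene is not reported here.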

Additional observations from a re-analysis of the deposited data

How the results depend on the processing

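Over all genes, edgeR called 63 for 1 week against ad libitum, 12 for 1 day against ad libitum and 0 for 1 week against 1 day. In that order the counts were 458, 184 and 7 by DESeq2, 218, 57 and 0 by limma voom with quality weights, and 155, 26 and 0 with only the 6 libraries compared. Without 1 week replicate 3 and ad libitum replicate 3 together they were 0, 0 and 0, and without 1 week replicate 2 and 1 day replicate 2 together 70, 50 and 0. With 1 library left out at a time they ran between 8 and 121, between 0 and 22, and between 0 and 3. The cause was not tested. Of the members, 0 were called under the main settings. With only the 6 libraries compared 1 was called for 1 day against ad libitum (Slc17a7), and with 1 library left out between 0 and 1 was called in either comparison of the 1 week group, the 1 being Gh without 1 week replicate 1, which the filter then kept. In both comparisons with ad libitum, libraries of the same number did not all deviate together, with correlations between −0.31 and 0.24, so the numbers were not taken to pair them there either. With the replicate block 32, 2 and 0 genes were called, and 0 members; with the block on only the 6 libraries of 1 week and 1 day, a fit added after seeing the data, 0 genes were called. Over up to 18 alternatives, 19 in the last comparison, 8, 26 and 31 of 34 members kept 1 sign. The library with the highest sum of each marker set was the same with RLE or plain library totals. Genes near 3 counts, such as Aqp1 in 1 day replicate 3, are limited by depth.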

Other observations

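Genes outside the marker sets also singled out particular libraries. In 1 week replicate 3 genes with the largest ratios to the median of the other 8 libraries included Slc6a4, the serotonin transporter, at 11.8 CPM against 0.123 CPM, Crym at 62.6 against 0.714 CPM, Fat2 at 45.3 against 0.842 CPM, and Prg4 at 25.2 against 0.733 CPM. Slc6a4 also led in 1 week replicate 1 (4.72 CPM) and ad libitum replicate 3 (8.32 CPM). Tph2 was next in 1 week replicate 1, followed by Commd1b, Cdh1 and Prg4. In ad libitum replicate 3 the second was Ttr, the only member among the 5 leading genes of any library, followed by n-R5s100, Tph2 and Fat2.

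Genes of hypothalamic neurons led in 3 libraries. Hcrt, the orexin precursor, had 2.22 CPM in 1 day replicate 1, 4.20 CPM in 1 day replicate 3 and 9.42 CPM in ad libitum replicate 1, against a median of 0.128 CPM in the other libraries of each. Pmch, the precursor of melanin-concentrating hormone, had 39.9 CPM in 1 day replicate 3 and 43.7 CPM in ad libitum replicate 1, against 2.40 CPM. Gpr50 was among the 5 in all 3 of these libraries, Bsx in both 1 day libraries and Crabp1 in 1 day replicate 3. The libraries 1 week replicate 2 and 1 day replicate 2 were led by predicted genes and pseudogenes, Gm29216 being first in both. In ad libitum replicate 2 the ribosomal RNA gene Rn18s-rs5 had 97202 CPM, against a median of 816 CPM, and n-R5s100, Lars2, Prg4 and Cdh1 followed. Rn18s-rs5 and n-R5s100 were also among the 5 leading genes of ad libitum replicate 1, at 12368 and 3.85 CPM.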
